A study of Mus musculus with 12 samples.

Results

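The small RNAs compared here came from the caput epididymidis of 13-month-old C57BL/6 mice, 1 library from wild-type (WT) animals and 1 from animals lacking Gpx5 (Gpx5-/-, KO). The members are all entries, of 7 main RNA classes (miRNA, tRNA, snoRNA, rRNA, snRNA, piRNA and mRNA) and others, to which the authors matched the reads of these 2 libraries. They number 107757 of the 145800 entries listed over the 10 small RNA libraries of the series, and the 2 libraries are 2 of its 12 samples. The other samples are the WT and KO pairs of corpus, cauda and testis at 13 months, the caput pair at 2 months, and 2 transcriptomes of the 13-month caput. Per the labels, tissue of 7 mice was pooled for each genotype at 13 months, testis and corpus were taken as they were, and caput and cauda were punctured and held in saline so that sperm could leave. With 1 pooled library in each group, the comparison has no replicate check, no p-value is given, and intervals cover counting error only. Strain and age were shared by both groups.

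The caput is the first segment of the epididymis, the duct in which sperm leaving the testis mature. Its epithelium secretes proteins such as GPX5, a glutathione peroxidase that lies in the lumen and on sperm. miRNAs are short guides that pair with mRNAs mainly through their seed, the stretch of bases near the 5′ end. piRNAs are longer guides that begin mostly with U and are known from male germ cells, where PIWI proteins carry them, and fragments of tRNAs are abundant in the epididymis and in sperm.

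The WT library held 13825045 classified reads and the KO library 18362642, and all small RNA levels are given as RPM, the reads of an entry scaled to the classified reads of its library. The other 8 libraries held 3855476 to 29049669 classified reads. A count of 0 in WT and KO caput allows up to 0.217 and 0.163 RPM, which is 3 reads. Of the 100 most abundant ranks, 10 in WT and 9 in KO have no line in the tables used here, each of 724 to 4514 RPM in WT and of 659 to 4808 RPM in KO. A ratio of any entry to which such a sequence belongs would lack it, and this was not tested. Fragments of the Gpx5 mRNA, the check of the genotype, stood at 58.4 RPM in the WT library (808 reads) and at 1.42 RPM in the KO library (26 reads), which was 41.3-fold lower (95% interval 27.96 to 63.6). In the transcriptomes of the same tissue, Gpx5 was at 8474 RPKM (reads scaled to transcript length and library depth) in WT and 918 RPKM in KO, by the values the authors deposited.

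The label of caput was checked against marker lists. In the WT transcriptome, Insl3, the Leydig cell hormone of the testis, was at 219 RPKM, and in KO at 1.47 RPKM. Prm1, the protamine of spermatids, was at 2090 RPKM in WT and 24.4 RPKM in KO. All 8 genes of the Leydig list were at least 2-fold lower in KO, with summed levels of 371 RPKM in WT and 11.9 RPKM in KO, and so were 27 of 27 spermatid genes with a level, with sums of 15254 and 253 RPKM. Transcripts known from testis cells were thus high in the WT library and lower in the KO library. Of 31 caput secretory genes with a level, 2 were at least 2-fold lower in KO and 18 at least 2-fold higher. The share over all transcripts is not given here. Among the small RNA reads, fragments of Leydig mRNAs summed to 3.91 RPM in WT against 0.0545 RPM in KO, and 6 of the 8 genes, Insl3 and Cyp17a1 among them, had no read in WT. Of the 54 WT reads, 35 were copies of 1 sequence of 19 nt assigned to Hsd17b3. The other 19 were assigned to Star, 68.4% of them from the minus strand. Fragments of spermatid mRNAs summed to 6.94 RPM in WT against 3.10 RPM in KO, and 8 of 28 genes in WT and 11 in KO had no read. The part of testis transcripts in the results below was not tested, and in bulk tissue fewer cells of a type and less RNA per cell cannot be told apart.

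The reads on which the comparison turns are these. Mature miRNAs are shown with the seed, bases 2 to 8, in capitals, from RefSeq on GRCm38.p6. First come the most abundant pair of caput miRNAs, miR-10b-5p at chr2:74726074-74726096 on the plus strand and miR-10a-5p at chr11:96317186-96317208 on the plus strand, which share a seed and differ inside.
miR-10b-5p: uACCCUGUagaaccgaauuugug
miR-10a-5p: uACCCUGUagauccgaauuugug
Then come miRNAs of an X-linked cluster known from male germ cells, miR-871-3p at chrX:66810438-66810460, miR-741-3p at chrX:66796809-66796831 and miR-465c-5p at chrX:66826004-66826025 and chrX:66832566-66832587, all on the minus strand, which have different seeds.
miR-871-3p: uGACUGGCaccauucuggauaau
miR-741-3p: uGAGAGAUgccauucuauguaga
miR-465c-5p: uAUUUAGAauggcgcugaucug
The autosomal germ cell miRNAs miR-34b-5p at chr9:51103610-51103632 on the minus strand and miR-449a-5p at chr13:113037549-113037570 on the plus strand share a seed.
miR-34b-5p: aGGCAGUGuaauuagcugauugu
miR-449a-5p: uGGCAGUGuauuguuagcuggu
Reads of miR-27b-3p, whose gene is on chromosome 13, are shown from the RefSeq first base and with an extra 5′ T, in capitals, because their ratio depended on that base.
miR-27b-3p read from the mature first base: ttcacagtggctaagttctg
miR-27b-3p read with 1 extra first base: Tttcacagtggctaagttctg
Reads of the 5′ end of tRNA-His with 1 and with 2 leading G, in capitals, are shown because the libraries differed between these forms.
tRNA-His fragment with 1 G: Gccgtgatcgtatagtggttagtactctgc
tRNA-His fragment with 2 G: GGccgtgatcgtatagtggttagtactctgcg
The most abundant reads of the leading tRNA-Gly and tRNA-Val entries stand for the bulk of the tRNA class.
tRNA-Gly fragment: gcattggtggttcagtgg
tRNA-Val fragment: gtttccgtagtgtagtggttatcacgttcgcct

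Across the classes, entries in the KO library were far more often lower than higher. An entry was compared when it reached 10 RPM in a library, and called at a 2-fold ratio. Of the 3508 entries compared, 3016 (86.0%) were lower in KO and 18 (0.513%) were higher. The classes differed widely. Of piRNA entries, 2553 of 2586 (98.7%) were lower and 1 (0.0387%) was higher, with a median log2 ratio of -6.47. Of mRNA entries, 287 of 349 (82.2%) were lower and 2 (0.573%) were higher, with a median of -5.72. Of miRNA entries, 116 of 333 (34.8%) were lower and 11 (3.3%) were higher, with a median of -0.44. Of tRNA entries, 23 of 91 (25.3%) were lower and 2 (2.2%) were higher, with a median of -0.47. Of snoRNA entries, 10 of 87 (11.5%) were lower and 1 (1.15%) was higher, with a median of -0.51. Of snRNA entries, 10 of 18 (55.6%) were lower and 0 (0.0%) were higher, and of rRNA entries 17 of 44 (38.6%) were lower and 1 (2.27%) was higher. The rRNA class as filed also holds mRNAs of ribosomal proteins, which took 1.25% of its WT reads. Among its lower entries were Rps27a, with the lowest ratio of the class at 23.3 RPM in WT against 0.327 RPM in KO, and Rps15, at 16.1 and 0.436 RPM.

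**Figure D1:**
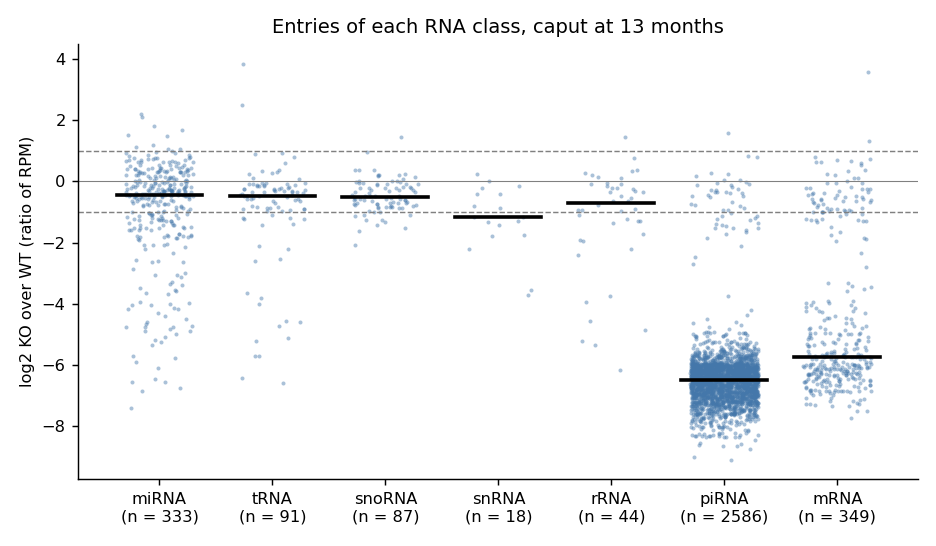
log2 ratio of KO to WT RPM (vertical axis) for every compared entry of 7 classes (points, spread sideways at random); black bars are medians and dashed lines mark the 2-fold calls. piRNA and mRNA entries lie around medians of -6.47 and -5.72, while the medians of miRNA, tRNA and snoRNA entries lie between -0.44 and -0.51.

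These shares depend on the scaling. piRNA reads made 15.8% of classified reads in WT and 0.663% in KO, so every other class shares a different remainder. With edgeR TMM factors from the miRNA names, every log2 ratio rises by 0.55, and 78 miRNA entries were lower and 43 higher, 16 tRNA entries lower and 6 higher, and 2 snoRNA entries lower and 2 higher. Scaled to miRNA reads every log2 ratio falls by 0.49, and the calls were 150 lower and 6 higher for miRNA and 44 lower and 0 higher for snoRNA. The directions given below for small ratios hold for RPM of classified reads only.

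Of the 10 miRNAs with the highest mean level over both libraries, 9 were higher in the KO library, each by less than 2-fold. miR-10b-5p, encoded in a Hox cluster, was at 187112 RPM in WT against 321084 RPM in KO (ratio 1.72, 95% interval 1.71 to 1.72). miR-10a-5p, from the other Hox cluster with this seed, was at 112253 and 177308 RPM. The seed they share therefore took 299365 RPM in WT against 498392 RPM in KO. Next in order came miR-143-3p, a smooth muscle miRNA, at 45094 and 64922 RPM, miR-148a-3p at 26351 and 37821 RPM, and miR-191-5p at 24736 and 25782 RPM. miR-30a-5p was at 11009 and 14994 RPM, miR-22-3p at 9262 and 9870 RPM, miR-26a-5p at 6799 and 11405 RPM, and the epithelial miR-141-3p at 6984 and 13350 RPM. Only let-7c-5p among these 10 was lower in KO, at 9203 and 7490 RPM. miR-30d-5p, which would be among the first 10 by its WT level, was lower as well, at 7503 and 6381 RPM. The log2 ratios of these 10 ran from -0.30 to 0.93, and those of miR-191-5p, miR-30a-5p and miR-22-3p are below 0 when scaled to miRNA reads.

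The miRNAs of male germ cells were low in the KO library as a group. Of the 38 members listed, 27 entries were compared and 27 were lower. An arm present in 1 library alone passes the 10 RPM minimum through that library, so this count is a description. Of the listed members, 3 share 1 joint entry, and those without a compared entry stayed under 10 RPM in both libraries. Over all compared arms, 77 of 281 mature arms (27.4%) were lower and 10 (3.56%) were higher. Their summed level was 10835 RPM in WT against 621 RPM in KO, which was 17.5-fold lower (95% interval 17.1 to 17.8), and their median log2 ratio was -4.60, beside -0.34 over all mature arms. In the other libraries the sum was 2066 RPM in WT against 2032 RPM in KO corpus, 1041 and 1317 RPM in cauda, 26193 and 38734 RPM in testis, and 79.1 and 83.1 RPM in caput at 2 months. The WT caput at 13 months thus stood highest outside testis, and the KO caput stood below corpus and cauda of both genotypes.

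Within this group, miR-871-3p had the highest level, at 3915 RPM in WT against 41.6 RPM in KO (94.2-fold lower, 95% interval 87.7 to 101.3). Its level in WT caput was above that of WT testis, 2468 RPM, and in KO testis it was 9689 RPM. Counted by inner sequence, its reads from the RefSeq first base were at 3719 RPM in WT caput, 83.7 RPM in WT testis and 9016 RPM in KO testis. Those from other first bases were at 123, 2371 and 622 RPM. The order of these libraries thus depended on the first base. miR-34c-5p, of a family expressed from meiosis onward and also in ciliated cells, was at 3095 and 376 RPM (8.23-fold lower, 8.02 to 8.44), and in testis at 12113 RPM in WT. miR-741-3p was at 422 and 15.6 RPM, miR-449a-5p at 411 and 14.5 RPM, miR-465c-5p at 398 and 17.6 RPM, and miR-470-5p at 338 and 12.6 RPM. The folds were thus unequal within the group: the arms of miR-34b and miR-34c had log2 ratios of -2.996 to -3.29, and miR-871-5p, miR-871-3p and miR-202-3p of -6.45 to -7.39. miR-184-3p was at 326 and 13.0 RPM, while WT testis held 34.4 RPM of it, WT corpus 371 RPM and KO corpus 297 RPM. The seed shared by miR-34a, miR-34b-5p, miR-34c-5p, miR-449a and miR-449c took 3955 RPM in WT against 486 RPM in KO, and 5 of its 5 arms were lower.

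**Figure D2:**
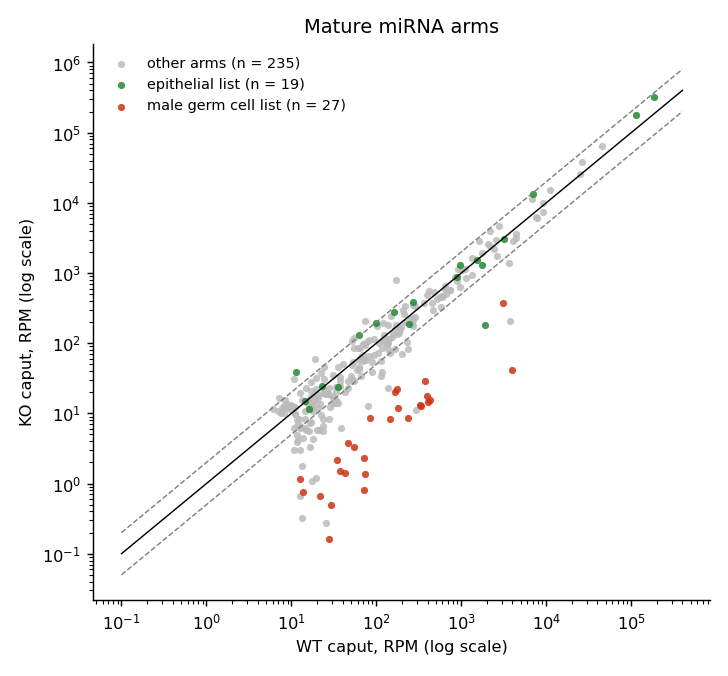
Level of each compared mature miRNA arm in KO caput (vertical axis, RPM, log scale) against WT caput (horizontal axis, RPM, log scale); the solid line marks equal levels and the dashed lines 2-fold. The 27 arms of the male germ cell list all lie below the lower dashed line, and of the 19 arms of the epithelial list 1 lies below it and 3 above the upper.

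The arms differed by position as well. RefSeq placed 246 of the compared mature arms, 36 on the X chromosome and 207 on autosomes, and the rest have copies on both. On X, 23 were lower and 1 was higher, with a median log2 ratio of -3.65, and on autosomes 44 were lower and 7 higher, with a median of -0.27. Of the 36, 19 belong to the germ cell list, and most of these lie on the minus strand at chrX:66776760-66839121, from miR-743a to miR-465a. The other 17 arms on X had 4 lower, miR-743a-5p of the same cluster, miR-351-5p, miR-361-3p and miR-501-3p, with a median of -0.24, so that X-linked arms outside the list stood near the autosomal median. The 1 higher was miR-222-3p, at 51.5 RPM in WT against 107 RPM in KO.

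Outside the germ cell list, 50 of 254 mature arms were lower and 10 higher, with a median log2 ratio of -0.27. Where WT testis was below WT caput, 22 of 195 arms (11.3%) were lower, and where WT testis was at or above it, 28 of 59 (47.5%) were lower. miR-92a-3p, of the miR-17-92 cluster of proliferating cells, was at 3687 RPM in WT against 1369 RPM in KO, and at 3014 RPM in WT testis. The seed it shares with miR-25, miR-32 and miR-92b took 4506 and 1798 RPM. The list of the miR-17-92 cluster and its paralogs summed to 5054 and 2252 RPM, with 2 of 10 arms lower, and its next most abundant arm, miR-25-3p, was at 572 and 323 RPM. miR-15b-5p was at 118 and 39.1 RPM, with 225 RPM in WT testis.

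Lists of other cell types had smaller ratios. The epithelial list, led by miR-10a and miR-10b, summed to 317518 RPM in WT against 521339 RPM in KO, with 1 arm lower and 3 higher of 19. miR-200a-3p, miR-200b-3p and miR-200c-3p, which keep epithelia from turning mesenchymal, had log2 ratios of 0.01, -0.06 and -0.40. Smooth muscle miRNAs summed to 46108 and 65810 RPM, nearly all of it miR-143-3p, without which they summed to 1014 and 889 RPM. Endothelial miR-126 arms summed to 1971 and 3232 RPM, and leukocyte miRNAs to 4282 and 4690 RPM. Within the leukocyte list miR-146a-5p was at 952 and 626 RPM and miR-150-5p at 88.4 and 54.6 RPM, whereas miR-21a-5p was at 72.9 and 207 RPM. The erythroid list summed to 26.5 and 44.7 RPM. The let-7 list, with 1 of 14 entries lower, a joint entry of let-7a and let-7c, summed to 21991 and 20042 RPM, the miR-30 list to 22888 and 26534 RPM, the miR-29 list to 1960 and 2211 RPM and the miR-183 cluster to 2390 and 2774 RPM. The sums of the leukocyte, miR-30, miR-29 and miR-183 lists are lower in KO when scaled to miRNA reads, and that of let-7 is higher with TMM factors. Inside the let-7 family, let-7b-5p was lower (2595 and 1736 RPM) and let-7f-5p higher (2761 and 4664 RPM) in KO, both by less than 2-fold. The list of the imprinted Dlk1-Dio3 locus summed to 474 and 317 RPM, with the entries of miR-127-3p, miR-409-3p and miR-541-5p lower of 11, and a median log2 ratio of 0.14. With the reads of miR-127-3p filed under mRNA names, miR-127-3p as a whole was higher in KO, at 148 and 285 RPM, and so was the list, at 508 and 568 RPM.

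Summed by seed, epithelial families went different ways. The AACACUG seed of miR-141 and miR-200a took 8629 RPM in WT and 15101 RPM in KO, whereas the AAUACUG seed of miR-200b, miR-200c and miR-429 took 5911 and 5676 RPM. The UCACAGU seed of miR-27a and miR-27b took 4271 and 513 RPM, and the AUUUAGA seed of the miR-465 arms 597 and 29.2 RPM, with 3 of 3 arms lower. Of the reads with the inner sequence of miR-27a and miR-27b, 214 RPM in WT caput and 323 RPM in KO caput began 1 base before the RefSeq first base. Bases 2 to 8 of those reads are not UCACAGU. The members of the UCAAGUA seed, miR-26a-5p and miR-26b-5p, were both higher, at log2 ratios of 0.75 and 2.21. Nearly all their reads began 1 base before the RefSeq first base, for miR-26a-5p 6671 of 6779 RPM in WT caput and 11245 of 11388 RPM in KO caput, so that bases 2 to 8 of the reads themselves are not this seed. Reads kept under a precursor name made 52 further entries, of which 39 were lower and 1 higher.

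Few miRNAs were at least 2-fold higher in the KO library. miR-26b-5p was at 169 RPM in WT against 783 RPM in KO (ratio 4.63, 95% interval 4.43 to 4.84), while corpus held 3065 RPM in WT against 110 RPM in KO. miR-9-3p, best known from neurons, was at 18.8 and 59.7 RPM, and the other libraries of the epididymis at 13 months held at most 1.41 RPM of it. miR-194-5p was at 11.2 and 39.2 RPM, miR-467a-5p at 10.8 and 30.4 RPM, and miR-375-3p at 62.1 and 130 RPM. miR-125a-5p, at 2196 and 3961 RPM, and miR-126a-5p, at 1604 and 2853 RPM, were higher by less than 2-fold.

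Several of the large ratios held for reads from a particular first base and not for the others. Reads assigned to miR-27b-3p were at 3615 RPM in WT caput and 132 RPM in KO caput from their usual first base. From other first bases they were at 44.5 and 53.3 RPM. The values over all libraries are of reads with a 13-base inner sequence, which miR-27a-3p shares, so they hold both miRNAs. Such reads that began at the RefSeq first base were at 3921 RPM in WT caput and 154 RPM in KO caput. Those from any other first base were at 226 and 335 RPM. From the RefSeq first base the levels were 30.8 RPM in WT against 8430 RPM in KO corpus, 11.7 and 6155 RPM in cauda, 13.0 and 9.86 RPM in testis, and 568 and 1117 RPM in caput at 2 months. Reads of the shared inner sequence from the RefSeq first base thus differed widely between the epididymal libraries. Those from other bases lay between 226 and 335 RPM in all 6 of these libraries at 13 months. The shorter read printed above stood at 2290 RPM in WT caput and 20.2 RPM in KO caput, and the read with the extra T at 52.6 and 65.1 RPM.

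miR-205-5p, an epithelial miRNA, was at 1876 RPM in WT against 181.7 RPM in KO (10.3-fold lower, 9.96 to 10.7). Its reads at 13 months carried 1 extra 5′ base, at 1879 RPM in WT caput, 173 in KO caput, 1534 in WT corpus, 1065 in KO corpus, 878 in WT cauda and 140 RPM in KO cauda. All 3 epididymal segments were thus lower in KO for this form, and reads from the RefSeq first base were higher in KO in all 3, at 2.89 and 8.99 RPM in caput. miR-26b-5p likewise consisted of reads with 1 extra base, at 164 and 775 RPM. For miR-127-3p, reads from the RefSeq first base were at 91.6 RPM in WT against 8.28 RPM in KO, and reads with 1 extra base at 54.5 and 276 RPM, so that the 2 forms had opposite directions. In all, 13 arms had ratios that differed by at least 2 log2 units between their usual first base and the others, miR-27a-3p, miR-340-5p, miR-342-3p, miR-101a-3p and miR-375-3p among them. Without these 13 arms, 67 of 268 mature arms were lower and 9 higher. Of 37 lower arms with at least 5 RPM from other bases, 25 were also at least 2-fold lower there and 4 had the opposite sign. For the germ cell list, reads away from the usual base were lower as well, with a log2 ratio of -5.82 for miR-871-3p and -2.67 for miR-34c-5p. The ranks without a line are high enough to hold such a form, and the cause of the difference by first base was not tested.

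**Figure D3:**
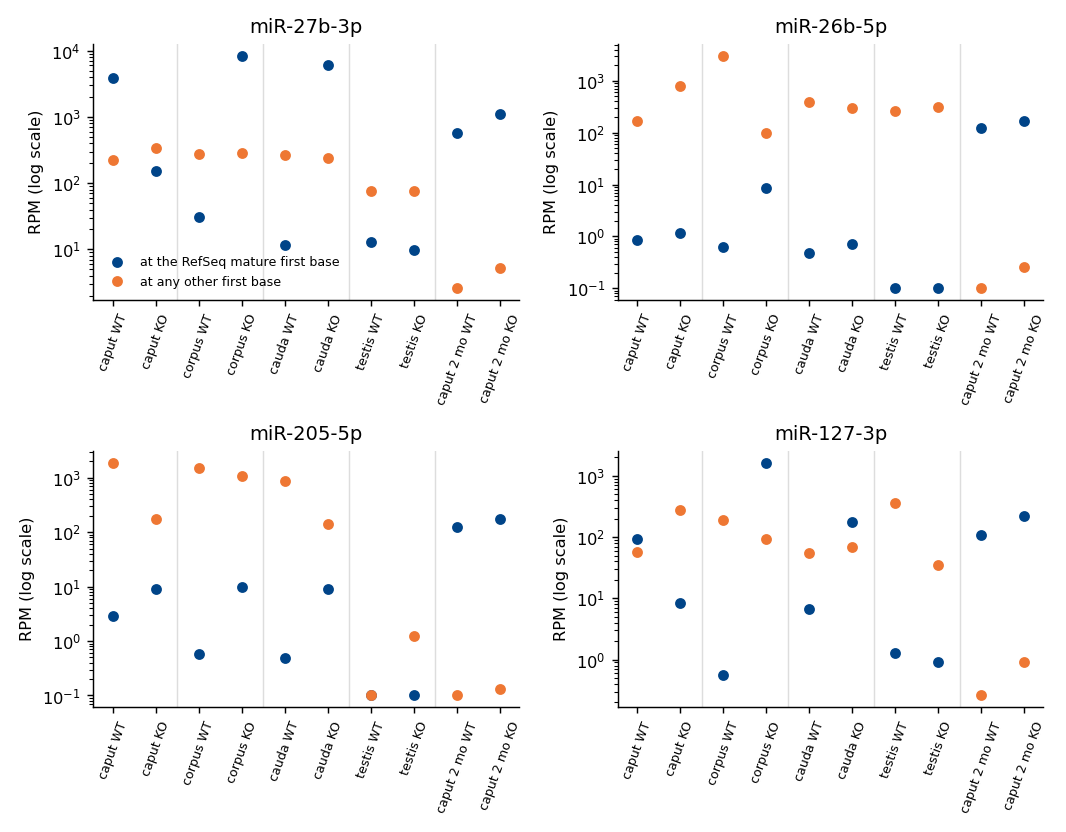
Level (vertical axis, RPM, log scale, values of 0 drawn at the height of 0.1 RPM) of reads of 4 miRNAs in each of the 10 libraries (horizontal axis, 13 months unless marked), from the RefSeq mature first base (blue) and from any other base within 3 (orange). Reads of miR-26b-5p and miR-205-5p lay mostly at other bases in the libraries at 13 months and at the RefSeq base in those at 2 months. The reads drawn for miR-27b-3p include those of miR-27a-3p, which shares the inner sequence. From the RefSeq base they were at 3921 RPM in WT against 154 RPM in KO caput.

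The lengths of miRNA reads were alike in the 2 libraries. Over the 114 miRNAs with at least 1000 reads in each library, the mean length was 22.06 nt in WT and 22.03 nt in KO. Of these miRNAs 56 were shorter and 58 longer in KO, 87 shifted by less than 0.1 nt, and 94 kept the share of their most frequent length within 5 percentage points. miR-10b-5p reads were 22.09 nt long on average in both. The few that shifted did so in either direction. miR-125a-5p went from 23.01 nt in WT to 22.32 nt in KO, with 28.3% and 53.0% of reads at 22 nt, and its mean in the other libraries was 22.25 nt or more, with 23.24 nt in WT and 22.25 nt in KO corpus. miR-21a-5p went from 22.49 to 23.08 nt and miR-92a-3p from 22.78 to 23.12 nt. miR-101a-3p went from 21.26 to 20.96 nt, while 55.4% of its WT reads and 4.49% of its KO reads began away from the usual base, and its reads from the usual base alone shifted by 0.07 nt. miR-30a-5p shifted by -0.32 nt, with no such difference in first base.

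The tRNA fragments that fill most of this class differed little between the libraries. The tRNA-Gly entries stood at 138293 RPM in WT against 127340 RPM in KO, with the printed read at 61448 and 53665 RPM. The tRNA-Val entries stood at 64291 and 55786 RPM, the tRNA-Lys entries at 4122 and 3525 RPM, and the tRNA-Asp entry at 1154 and 855 RPM. tRNA-Gly fragments averaged 23.7 nt in WT and 24.1 nt in KO, and tRNA-Val fragments 32.8 nt in both. tRNA-Glu entries were at 586 and 271 RPM (ratio 0.46, 95% interval 0.45 to 0.48), and at 15820 RPM in KO corpus, against 131 to 372 RPM in the other 7 libraries. The caput ratio of the tRNA-Glu entries is under 2-fold with TMM factors.

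tRNA-His fragments went the other way, through their 5′ end. tRNA-His is unusual in receiving an extra G at its 5′ end after transcription, so that fragments with 1 leading G start at the encoded first base and those with 2 at the added one. Its entries summed to 2184 RPM in WT against 3262 RPM in KO. Fragments with 1 leading G were at 1400 and 1270 RPM, fragments with 2 leading G at 94.3 and 1415 RPM, and fragments with none at 0.506 RPM (7 reads) and 88.4 RPM (1624 reads). With fragments that have other leading bases, all forms came to 1911 RPM in WT and 3086 RPM in KO. The form with 2 G made 4.94% of all forms in WT caput and 45.8% in KO caput, and 35.2 to 69.8% in the other 8 libraries. The WT caput library at 13 months thus stood apart and not the KO library. The printed read with 2 G was at 44.6 RPM in WT against 622 RPM in KO, and the one with 1 G at 434 and 382 RPM. The entry that takes the reads with 2 G, M12254.1, was therefore the larger of the pair of higher tRNA entries, at 246 and 1374 RPM (ratio 5.58, 5.39 to 5.79). The other was at 1.88 and 27.0 RPM.

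**Figure D4:**
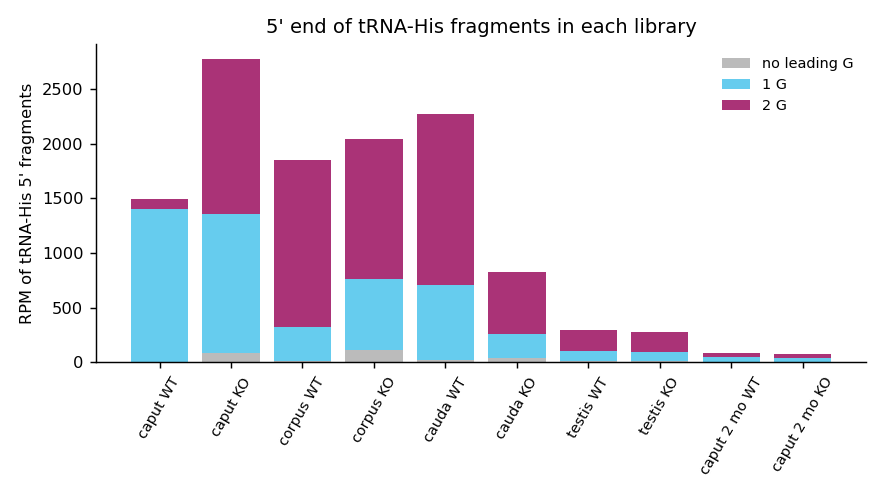
RPM of 5′ fragments of tRNA-His (vertical axis) in each of the 10 libraries (horizontal axis), stacked by the number of leading G. Fragments with other leading bases are not drawn. Fragments with 2 G make 94.3 RPM in WT caput and 1415 RPM in KO caput at 13 months, at similar levels of fragments with 1 G (1400 and 1270 RPM).

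The 23 lower tRNA entries were mostly of low level. They had a median of 15.7 RPM in WT against 1.47 RPM in KO, 12 were read mostly from the minus strand, 15 mostly at 26 to 32 nt, and 16 were higher in WT testis than in WT caput. Without reads of 26 to 32 nt that start with T, 10 of 75 tRNA entries (13.3%) were lower.

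The piRNA entries had the largest ratios. Of the 2586 compared, 2532 were at least 16-fold lower in KO, 1231 had 3 or fewer reads there and 183 had none. Among the lower entries, the median share of WT reads at 26 to 32 nt was 99.1% and of reads beginning with T 99.2%, and 2272 of 2553 were higher in WT testis than in WT caput. Their median level was 21.0 RPM in WT against 0.218 RPM in KO caput, 0.344 and 0.838 RPM in corpus, 0.183 and 0.262 RPM in cauda, and 81.6 and 79.9 RPM in testis. These entries were chosen by a high level in WT caput and a low one in KO caput, so the order of those libraries is a description. piR-142490 was at 1053 and 14.3 RPM (73.8-fold lower, 65.3 to 83.7), with 5954 RPM in WT testis. piR-5073 was at 148 and 0.272 RPM, piR-13659 at 105 and 0.327 RPM, and piR-103337 at 102 and 0.272 RPM. Unlike the others named, piR-103337 was lower in WT testis, at 43.1 RPM, than in WT caput.

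A small set of piRNA names behaved otherwise. The 32 entries without a call had a median of 49.2% of WT reads at 26 to 32 nt and 0.197% beginning with T, and 5 of them were higher in testis. piR-22206 was at 1956 RPM in WT against 1710 RPM in KO, piR-1330 at 1208 and 1124 RPM, and piR-120348 at 193 and 338 RPM. All 3 were also present in corpus, at 641, 980 and 984 RPM in WT. These entries are those without a 2-fold difference, so their similar levels are no separate result. When reads of 26 to 32 nt beginning with T were left out of every entry, 287 of 320 piRNA entries (89.7%) were still lower, as were 97 of 161 mRNA entries (60.2%) and 110 of 325 miRNA entries (33.8%).

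**Figure D5:**
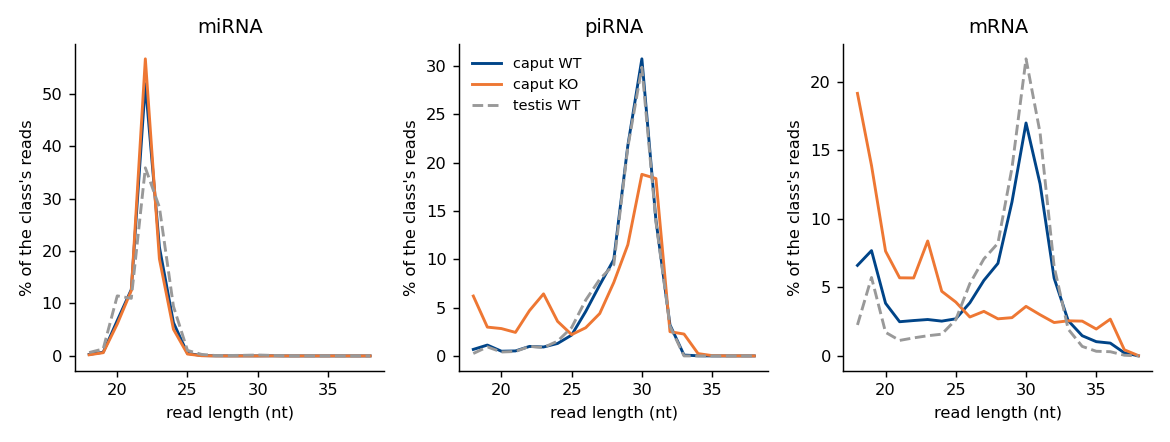
Share of the reads of 3 classes (vertical axis, percent) at each read length (horizontal axis, nt) in WT caput, KO caput and WT testis at 13 months. miRNA reads peak at 22 nt in all 3, whereas mRNA reads peak at 30 nt in WT caput and WT testis and at 18 nt in KO caput.

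Reads of the lower mRNA entries resembled those under piRNA names in length and first base. For the 287 lower entries the median share of WT reads at 26 to 32 nt was 88.4% and of reads beginning with T 75.7%, 85 were read mostly from the minus strand, and 270 were higher in WT testis. The 60 entries without a call had medians of 3.27% and 9.80%, 21 were read mostly from the minus strand, and 21 were higher in WT testis. Of the 2553 lower piRNA entries, 13 were read mostly from the minus strand. Strand is relative to the matched entry, a transcript for mRNA names and a piRNA for piRNA names. The resemblance therefore cannot be judged by strand. Over the whole class, 62.6% of WT reads and 20.7% of KO reads were 26 to 32 nt long. Where a gene has several transcript entries, the one with the lowest ratio is given. Spin1, a histone methylation reader, had fragments at 57.6 RPM in WT against 0.272 RPM in KO, of which 97.5% in WT were from the minus strand. Ddx19b, an RNA helicase of mRNA export, had fragments at 68.8 and 0.381 RPM, Asb1 at 150 and 0.980 RPM, Tbl2 at 300 and 2.40 RPM, Stox1 at 442 and 3.81 RPM and Ago2, the slicer of the miRNA pathway, at 175 and 1.52 RPM.

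Most of these fragments were lower without a 2-fold lower transcript. For the 121 lower entries with a transcript in the authors' RPKM table, the median was 6.96 RPKM in WT and 5.45 RPKM in KO. Of these 121, some of which belong to the same gene, 28 had a transcript at least 2-fold lower. Of the 15 entries without a call that have a transcript, 4 had one at least 2-fold lower, a similar share. Spin1 was at 12.7 RPKM in WT and 18.2 RPKM in KO, Ago2 at 4.82 and 4.67 RPKM, and Stox1 at 12.1 and 0.903 RPKM.

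Fragments of caput secretory mRNAs were read almost wholly from the plus strand. Adam7, a metalloprotease-like membrane protein of the epididymis, had 26.2 RPM in WT against 10.8 RPM in KO. Spag11b, a defensin-like protein, had 28.8 and 13.1 RPM, Defb20, a beta-defensin, 9.48 and 4.08 RPM, and Clu, clusterin, 9.69 and 5.39 RPM. Lcn5, a retinoic acid-binding lipocalin, had 29.4 and 27.2 RPM. The transcripts of all 5 were higher in KO, with Adam7 at 2383 RPKM in WT and 6373 RPKM in KO, Spag11b at 3007 and 7241 RPKM, Defb20 at 2506 and 6589 RPKM, Clu at 1507 and 2961 RPKM and Lcn5 at 770 and 2294 RPKM. The secretory list of 33 genes summed to 187 and 78.1 RPM of fragments and to 32439 and 56109 RPKM. Without Gpx5, which the list holds, the fragments summed to 129 and 76.7 RPM, less than 2-fold apart, and the transcripts to 23965 and 55192 RPKM. The 2 mRNA entries higher in KO, EU434913.1 at 17.9 and 214 RPM and Rtl1 at 12.6 and 31.4 RPM, were read from the minus strand. Rtl1 is the imprinted gene antisense to miR-127, and these reads carried the miR-127-3p sequence with the extra 5′ base described above, so that they repeat that result.

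Among structural RNAs, the fragments differed by family. Of 6 snRNA families, 4 (66.7%) were lower and 0 (0.0%) higher: U1, of the spliceosome, at 278 RPM in WT against 100 RPM in KO, U2 at 361 and 149 RPM, U4 at 33.6 and 12.7 RPM and U11 at 18.2 and 5.72 RPM. U6 at 49.6 and 28.1 RPM and U5 at 45.5 and 33.6 RPM were lower by less than 2-fold. These families hold entries with Rfam names only. The most abundant snRNA entry, under a GenBank name, was higher in KO by less than 2-fold, at 760 and 901 RPM. The next such entry was at 137 and 124 RPM. With TMM factors, of the snRNA families U11 alone stayed 2-fold lower, 0 of the snoRNA and rRNA families did, and 2 of 58 snoRNA families were higher. Fragments of the signal recognition particle RNA were at 1003 and 126 RPM (log2 ratio -2.99) and of 7SK, which restrains transcription elongation, at 312 and 70.6 RPM. Both were higher in testis, at 2484 and 817 RPM in WT. Y RNA fragments, abundant in corpus at 1030 RPM in WT against 1660 RPM in KO, were at 338 RPM in WT caput and 342 RPM in KO caput.

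Of the rRNA families with Rfam names, 5.8S fragments were at 485 RPM in WT against 221 RPM in KO. Small-subunit fragments were at 2289 and 1440 RPM, and 5S fragments at 1952 and 1667 RPM. The most abundant rRNA entry, under a GenBank name and outside these families, was at 4833 and 1970 RPM (2.45-fold lower). The next such entry was at 713 and 334 RPM. Of 58 snoRNA families, which guide modification of rRNA, 6 (10.3%) were lower and 1 (1.72%) was higher, with a median log2 ratio of -0.49. SNORD58 was at 185 and 67.6 RPM, SNORD66 at 209 and 98.2 RPM, and SNORD33 at 112 and 53.1 RPM. SNORD69 was the higher one, at 26.8 and 72.6 RPM, followed by SNORD63 at 36.7 and 70.9 RPM.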

How the data were processed

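Small RNAs of 18 to 40 nt were sequenced from 1 pooled library per genotype. Per the file headers, the authors deposited for each distinct sequence its read count and the entry it matched in miRBase, Rfam or GenBank with at most 2 mismatches. The submitters' processing notes name Bowtie 0.12.7, TopHat2 and mm9. The transcriptome values are RPKM as deposited by the authors, with GFOLD named per the file headers. Counts were summed per entry under the names of the WT table, since 14128 of 64065 shared sequences carried another entry name in KO. miRNA reads were placed on mature arms by 16 bases of the hairpin, or by a 13-base anchor. Sums were divided by the library total. Entries at 10 RPM or more were compared and called at 2-fold, and intervals are exact conditional binomial intervals at 95%. With 1 library per group no test was run across samples. The script was tested on simulated data. Named entries are the 10 most abundant miRNAs, the 10 largest miRNA ratios in each direction at 500 RPM or more, every tRNA at 500 RPM or more, the 3 most abundant and 3 largest piRNA ratios at 100 RPM or more, the 5 largest ratios of the other classes at 20 RPM or more, list members, Gpx5 and the 5 largest length shifts in each direction; a few that the text gives in full stand for these, and others were chosen after their values were seen. The members and lists were chosen with earlier results of these data known. Python 3.11.15, pandas 2.3.3, numpy 2.4.6, scipy 1.17.1 and edgeR 4.0.16 (TMM factors only) were used. Alternatives changed the scaling, minimum level, names, mismatches and sequences counted. In the tables at 2 months some low counts had turned into dates, and these were read back from the month.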

Additional observations from a re-analysis of the deposited data

Results flagged for a closer look

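For the following entries the log2 ratio of KO to WT in caput at 13 months was at least 1 in size and another tissue's pair, also 1 library per genotype, differed at least 2-fold the other way. None of these differences between tissues was tested. Ranks among the 100 most abundant are without a line in these libraries too. They number 11 in WT and 11 in KO corpus, 21 and 18 in cauda, and 23 and 22 in testis. A ratio of any entry to which such a sequence belongs would lack it, and this was not tested.

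miR-27b-3p was at -4.17 in caput, at 6.28 in corpus and at 6.58 in cauda. miR-26b-5p was at 2.21 in caput and at -4.80 in corpus. miR-92a-3p was at -1.43 in caput and at 1.964 in corpus. miR-871-3p was at -6.56 in caput and at 1.97 in testis. From first bases other than the RefSeq one, testis held 2371 RPM of miR-871-3p in WT against 622 RPM in KO, the opposite direction. The tRNA-His entry M12254.1 was at 2.48 in caput and at -1.45 in cauda.

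Among mRNA entries, EU434913.1 was at 3.58 in caput and at -4.46 in testis, and Rtl1 at 1.32 in caput and at -1.004 in testis; both hold miR-127-3p reads. Rn4.5s, the 4.5S RNA, was at -1.93 in caput and at 1.36 in corpus, 1.68 in cauda and 1.21 in testis. AF406591.1 was at -2.39 in caput and at 2.78 in testis, JF713791.1 at -1.95 and 2.41, and AB116376.1 at -1.53 and 1.04. The U2 entry AL731833.7 was at -1.15 in caput and at 1.82 in cauda. The U1 entry CAAA01130712.1 was at -1.74 in caput and at 1.17 in corpus, and the U1 entries under AEKR01274837.1 were at -1.32 and -3.56 in caput, both opposite in testis. SNORD58 under CAAA01155521.1 was at -2.07 in caput and at 2.62 in corpus, and SNORD5 under CAAA01120222.1 at -1.11 in caput and at 1.31 in testis.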

How the results depend on the processing

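Counts of entries at least 2-fold lower or higher in KO are given where an alternative moved them by over 1.5 times, and the cause was not tested. From reads away from the usual first base, miR-205-5p turns from a log2 ratio of -3.37 to 1.13. With TMM factors, higher entries numbered 43 (miRNA), 6 (tRNA), 2 (snoRNA), 2 (rRNA), 3 (piRNA) and 10 (mRNA), and lower ones 2 (snoRNA) and 5 (snRNA). Scaled to miRNA reads, 6 miRNA, 0 snoRNA, 0 rRNA and 1 mRNA entries were higher, and 42 tRNA and 44 snoRNA entries lower. With a minimum of 100 RPM, lower entries numbered 29 (miRNA), 1 (tRNA), 3 (snoRNA), 2 (snRNA), 6 (rRNA), 216 (piRNA) and 24 (mRNA), and higher ones 6, 1, 0, 0, 0, 0 and 1. With a minimum of 3 reads, lower entries numbered 442, 188, 64, 56, 259, 22892 and 10951 in the same order, and higher ones 43, 10, 4, 2, 6, 6 and 124. With sequences listed in both libraries only, lower entries were 13 (tRNA), 5 (snRNA), 11 (rRNA) and 67 (mRNA). Without mismatched sequences, lower ones were 72 (miRNA), 4 (tRNA), 5 (snRNA), 10 (rRNA) and 160 (mRNA), and 0 tRNA and 0 mRNA entries were higher. Without each entry's most abundant sequence, lower ones were 14 (tRNA), 4 (snRNA) and 822 (piRNA), and 7 miRNA and 0 mRNA entries were higher.

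The following alternatives were added after seeing the data, as were the list sums given without miR-143-3p, without Gpx5 and with all miR-127-3p reads, and the family counts with TMM factors. Without reads of 26 to 32 nt that start with T, lower entries were 10 (tRNA), 6 (snRNA), 11 (rRNA), 287 (piRNA) and 97 (mRNA), and 0 piRNA entries were higher. With the names deposited in each table, higher entries were 23 (miRNA), 7 (tRNA), 1 (snRNA), 6 (rRNA), 4 (piRNA) and 20 (mRNA), and 0 rRNA and 0 piRNA entries were higher with the names used in KO. Lower miRNA entries were 77 with mature arms only, 67 also without the arms that differ by first base, and 17, with 5 higher, from reads away from the usual first base. Of 12 miRNA lists, 2 differed 2-fold in sum, the germ cell list and the miR-17-92 list, and 1 did so with TMM factors, without mismatches, or away from the usual first base. The mean length difference was -0.029 nt, -0.040 nt at the usual first base and -0.0021 nt with miRNAs weighted equally. No paired analysis was possible because each genotype has 1 caput library at 13 months. Depth limits entries near 0.217 RPM in WT and 0.163 RPM in KO.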

Other observations

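Of miRNA reads, 15.5% in WT caput and 12.8% in KO caput carried a mismatch, and positions 9 and 16 were tabulated. At position 9 of miRNA reads, 0.640% of WT caput reads and 0.0595% of KO caput reads carried a mismatch, and the other 8 libraries lay between 0.0131% and 0.207%. At position 16, WT caput was at 0.517% and KO caput at 0.531%, and the other 8 lay between 0.0486% and 0.134%.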
